A study of Drosophila melanogaster with 3 samples.

Results

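Chro, CTCF, BEAF-32, Dref, su(Hw), Cp190, mod(mdg4), Trl, pita and pzg encode insulator and promoter architecture proteins of Drosophila melanogaster. Their loci were examined in a ChIP-seq experiment on Tinman, the NK-2 class homeodomain factor of the heart and dorsal mesoderm. The 10 genes are 10 of the 13945 protein-coding genes annotated on 2L, 2R, 3L, 3R, 4 and X, and each symbol matched 1 annotated gene. They were chosen by the very high score of the peak at Chro and by the known roles of their proteins. Their scores and ranks are therefore given as a description, without tests. The material was whole embryos, male and female pooled, collected from 0 to 16 h of age. They came from the strain tin-GFP, a transgenic line stably expressing Tinman with GFP at its C-terminus, and GFP was the target of the antibody. There was 1 group of 3 biological replicates and no second genotype, treatment or mock precipitation among the samples used here. Binding in the mesoderm and in other tissues of the embryo cannot be told apart.

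Insulator proteins bind DNA at the borders of chromatin domains and limit contacts between enhancers and promoters on either side. In Drosophila, sequence-specific proteins such as CTCF, BEAF-32, Su(Hw), Pita and GAGA factor recruit shared partners, chiefly the BTB-domain proteins CP190 and Mod(mdg4). Many of these proteins also sit at promoters of housekeeping genes, where DREF binds the DNA replication-related element (DRE) and BEAF-32 binds the CGATA sequence inside it. Chromator (Chro) and Putzig (pzg, also called Z4) form a complex found at interbands, the decondensed stretches of polytene chromosomes.

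The deposited lists give scored entries on dm6. A pooled list held 30000 entries, and its 5508 highest-scoring ones form the list that met the authors' irreproducible discovery rate (IDR) criterion, called IDR peaks here. The replicate lists held 30000, 30000 and 24711 entries for replicates 1, 2 and 3. The authors drew the IDR list from the same 3 replicates, so a high rank in all of them is not independent support for it. Ranks run from 1, the highest score of a list. The files contain no read counts, so the depth behind a score is unknown, and each list has its own scale. A gene was called bound where the summit of an IDR peak lay in its body or within 2 kb. Distances are to transcription start sites (TSSs) of protein-coding genes.

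All 10 genes were bound, by 18 IDR peaks in total. Over all protein-coding genes, 40.6% were bound (5663 of 13945). The gene windows were longer than usual, with a median of 8511 bp for the 10 genes and 6166 bp for all genes. Of the 10 genes, 4 had at least 2 IDR peaks, namely Trl with 4, mod(mdg4) and pita with 3 each and BEAF-32 with 2, and 15.3% of all genes did. The windows held 43 pooled entries, 25 of them below the IDR list, and 52, 59 and 38 entries of replicates 1, 2 and 3.

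The sequences shown are those at the summits of the highest-scoring genes, at the most AT-rich summits and at motifs discussed further on. For Chro, whose summit is in an exon, the stretch beside the summit is given. All are dm6 sequence of the plus strand, 5′ to 3′, from the RefSeq Release 6 assembly, limited to bases outside exons of protein-coding genes. Capitals mark motif matches.
Chro to Ssl1, the stretch between the start sites, chr3L:22878985-22879088, capitals a Tinman site: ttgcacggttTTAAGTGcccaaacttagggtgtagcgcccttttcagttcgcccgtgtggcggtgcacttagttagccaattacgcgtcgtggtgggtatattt
Trl, intron, the peak of rank 23, chr3L:14759464-14759564, no match: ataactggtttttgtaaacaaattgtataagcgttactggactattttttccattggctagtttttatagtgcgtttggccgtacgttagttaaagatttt
Cp190, chr3R:15275327-15275427, no match: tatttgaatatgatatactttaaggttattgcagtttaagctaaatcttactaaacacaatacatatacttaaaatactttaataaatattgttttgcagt
mod(mdg4), the peak of rank 150, chr3R:21365489-21365566, no match: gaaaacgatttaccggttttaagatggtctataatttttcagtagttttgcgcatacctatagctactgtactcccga
Dref to RpL13, chr2L:9967230-9967306, capitals CGATA: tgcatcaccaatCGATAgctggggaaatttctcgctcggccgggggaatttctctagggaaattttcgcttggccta
su(Hw), chr3R:14308885-14308985, no match: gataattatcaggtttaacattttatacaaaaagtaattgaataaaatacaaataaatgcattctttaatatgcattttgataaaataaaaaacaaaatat
CTCF, first intron, chr3L:7356498-7356580, capitals a CTCF core and, after 1 base, CGATA on the minus strand: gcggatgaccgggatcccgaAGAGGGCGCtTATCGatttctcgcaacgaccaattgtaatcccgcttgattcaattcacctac

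The highest peaks of the 10 genes spread over almost the whole range of the IDR list, from rank 7 to rank 4677. Their median rank was 1114, and the median over the 5663 bound genes was 1989. Among the 10 genes, 4 had a peak within the first 150 ranks, as did 307 of all 13945 genes. That limit was set after the values were seen and equals the rank of the mod(mdg4) peak. The Chro peak had also chosen the genes, so these counts are a description only. The 4 were Chro, Trl, Cp190 and mod(mdg4). In the order of ranks, Chro, Trl and the pair of Cp190 and mod(mdg4) had replicate ranks that did not overlap those of the next gene. Cp190 and mod(mdg4) overlapped each other. From pita to CTCF, each gene's replicate ranks overlapped those of its neighbour in the order, so neighbours did not differ beyond the spread between replicates. The ranges of pita (778 to 1134), BEAF-32 (915 to 2164) and Dref (892 to 2204) did not overlap those of su(Hw) (3136 to 5938) and CTCF (2754 to 6327). That of pzg (1045 to 6921) overlapped all of these.

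**Figure D1:**
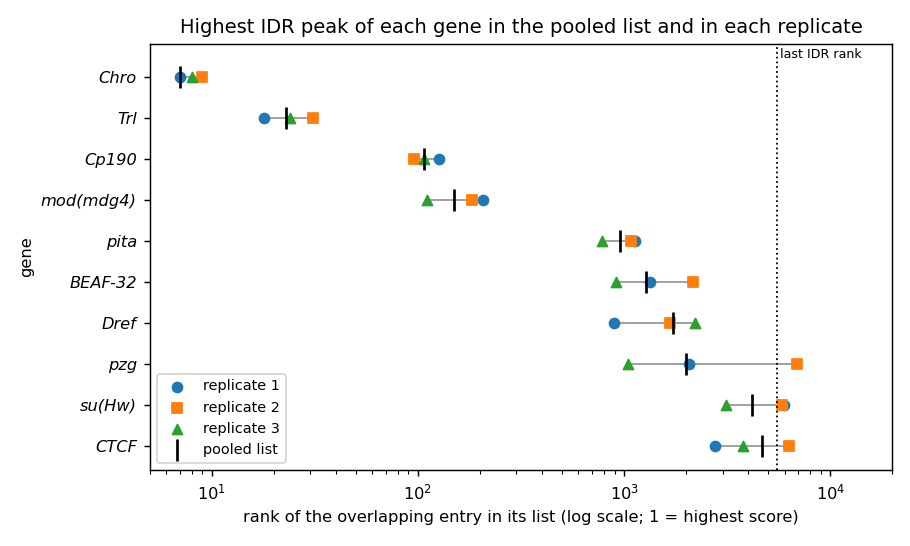
Rank of the highest IDR peak of each of the 10 genes (rows), on a log axis where 1 is the highest score. Coloured points are the overlapping entries in the lists of replicates 1 to 3, the grey line is their range, the black bar is the pooled rank and the dotted line marks rank 5508. Chro (ranks 7 to 9) and Trl (18 to 31) stand clear of the others, and the replicate 2 points of pzg, su(Hw) and CTCF and the replicate 1 point of su(Hw) lie beyond the dotted line.

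Chro, the chromodomain partner of Putzig, had the peak for which these genes were chosen, on 3L from 22878683 to 22879141. It scored 3080 in the pooled list and ranked 7. Replicates 1, 2 and 3 gave it scores of 1072, 928 and 1083 and ranks of 7, 9 and 8, a mean rank of 8 ± 1 (SD, n = 3). The replicates thus placed it within 2 ranks of each other. The gene itself (FBgn0044324) lies on the minus strand of 3L from 22873702 to 22878984. The summit was inside the 5′ UTR of Chro, 101 bp downstream of its TSS and 206 bp from the TSS of Ssl1, which encodes a TFIIH subunit and is transcribed away from Chro. This peak held 96.5% of the summed pooled score in the Chro window. The other pooled entries of the window ranked 12222 and 26315.

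The Chro peak had a single Tinman site in the form TTAAGTG, 112 bp from the summit, between the start sites of Chro and Ssl1 in the stretch shown above. TTAAGTG lay inside 8.08% of all IDR peaks. A CGATA sequence lay 9 bp from the summit. By the summed absolute log2 ratios of replicate ranks, the IDR peaks most like that of Chro were nearest to mRpL41 (0.90), ph-p (1.05), Art3 (1.05) and Tcs5 (1.48). Their pooled ranks were 8, 10, 6 and 11, so the likeness over 3 lists restates their similar ranks.

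The interband partner of Chro, pzg, which encodes a zinc finger protein, had a much lower peak, on 3L from 21285699 to 21286128 (score 315, rank 2002). Replicates 1, 2 and 3 ranked it 2052, 6921 and 1045, with scores of 117, 41.0 and 156. Replicate 2 alone placed it outside its 5508 highest entries, and the SD of the ranks, 3142, was nearly as large as their mean of 3339. Without replicate 2 the mean rank was 1548. The summit lay 185 bp upstream of the pzg TSS, inside the 5′ UTR of the divergent gene CG12974 and 48 bp from its TSS.

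Trl encodes GAGA factor, which binds GA-rich repeats and keeps promoters free of nucleosomes. With 4 IDR peaks it had the most of the 10 genes. The strongest, on 3L from 14759260 to 14759744, scored 2173 and ranked 23, with replicate ranks of 18, 31 and 24 (24.3 ± 6.51, SD, n = 3). It lay in an intron, 1535 bp from the nearest Trl TSS, and no start site of any protein-coding gene was nearer. It was the only highest peak among the 10 genes that had no start site within 500 bp.

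The other Trl peaks lay 3836, 4828 and 644 bp downstream of the outermost Trl start. The peak at 3836 bp (rank 588, replicate ranks 531, 1152 and 443) was 123 bp downstream of an internal Trl TSS, in a 5′ UTR shared with CG42507. The peaks at 4828 bp (rank 1114, replicate ranks 1268, 1014 and 1028) and 644 bp (rank 2772, replicate ranks 2972, 2550 and 2885) were intronic. Every replicate placed all 4 peaks within its 5508 highest entries. The 4 peaks occupied the first 4828 bp of a gene of 13121 bp, and the rest of the gene held only pooled entries of ranks 24068 and 28308. At the outermost Trl TSS itself no IDR summit was nearer than 644 bp. GAGAG, the core bound by GAGA factor, lay in 1 of the 4 peaks, the strongest, 187 bp from its summit.

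Cp190 encodes a BTB zinc finger protein that is recruited by most of the DNA-binding insulator proteins. It had a single IDR peak on 3R from 15275139 to 15275606, with score 1272 and rank 107. Replicates 1, 2 and 3 gave ranks of 126, 96 and 107 and scores of 418, 427 and 435, a mean rank of 110 ± 15.2 (SD, n = 3). The summit lay almost midway between divergent start sites, 136 bp upstream of Cp190 and 145 bp from CG4338. The 101 bp at the summit were only 20.8% GC, and 3.63% of all IDR summit windows had that GC content or less. A DRE, TATCGATA, lay 139 bp from the summit, on top of the Cp190 start site.

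mod(mdg4) encodes many protein isoforms that share a BTB domain, among them the Su(Hw) partner at gypsy insulators. Its 3′ exons are joined to the common exons by trans-splicing, and the annotation lists their precursors as separate genes named pre-mod(mdg4). All 23 of these lie within mod(mdg4), 14 on its own minus strand and 9 on the plus strand. The strongest peak, on 3R from 21365197 to 21365669, scored 1085 and ranked 150, with replicate ranks of 207, 182 and 111 (167 ± 49.8, SD, n = 3). It lay 11910 bp downstream of the TSS of mod(mdg4) itself. Its summit was 3 bp from the annotated start of pre-mod(mdg4)-E, 201 bp from those of pre-mod(mdg4)-AB and -C on the same strand and 118 bp from those of 7 precursors on the plus strand. These 7 are pre-mod(mdg4)-AD, -AE, -U, -V, -W, -X and -Y.

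A second peak inside the gene, on 3R from 21373536 to 21373713 (score 344, rank 1744), also lay at precursor starts, 35 bp from pre-mod(mdg4)-AA, -N and -O. Replicates 1, 2 and 3 ranked it 1395, 3219 and 1643. Both peaks within the gene thus lay at annotated starts of trans-spliced precursors. At the start of mod(mdg4) itself, the entry with its summit 15 bp from the TSS ranked 6057 with a score of 135, below the last IDR score of 147. Replicates 1, 2 and 3 ranked the overlapping entry 3820, 6488 and 11840, so only replicate 1 had it among its first 5508. The third IDR peak in the window (rank 397) lay 1397 bp upstream of mod(mdg4) and 179 bp from the TSS of the neighbouring gene tin, the gene carried as the GFP fusion. The replicates ranked that peak 359, 270 and 718.

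**Figure D2:**
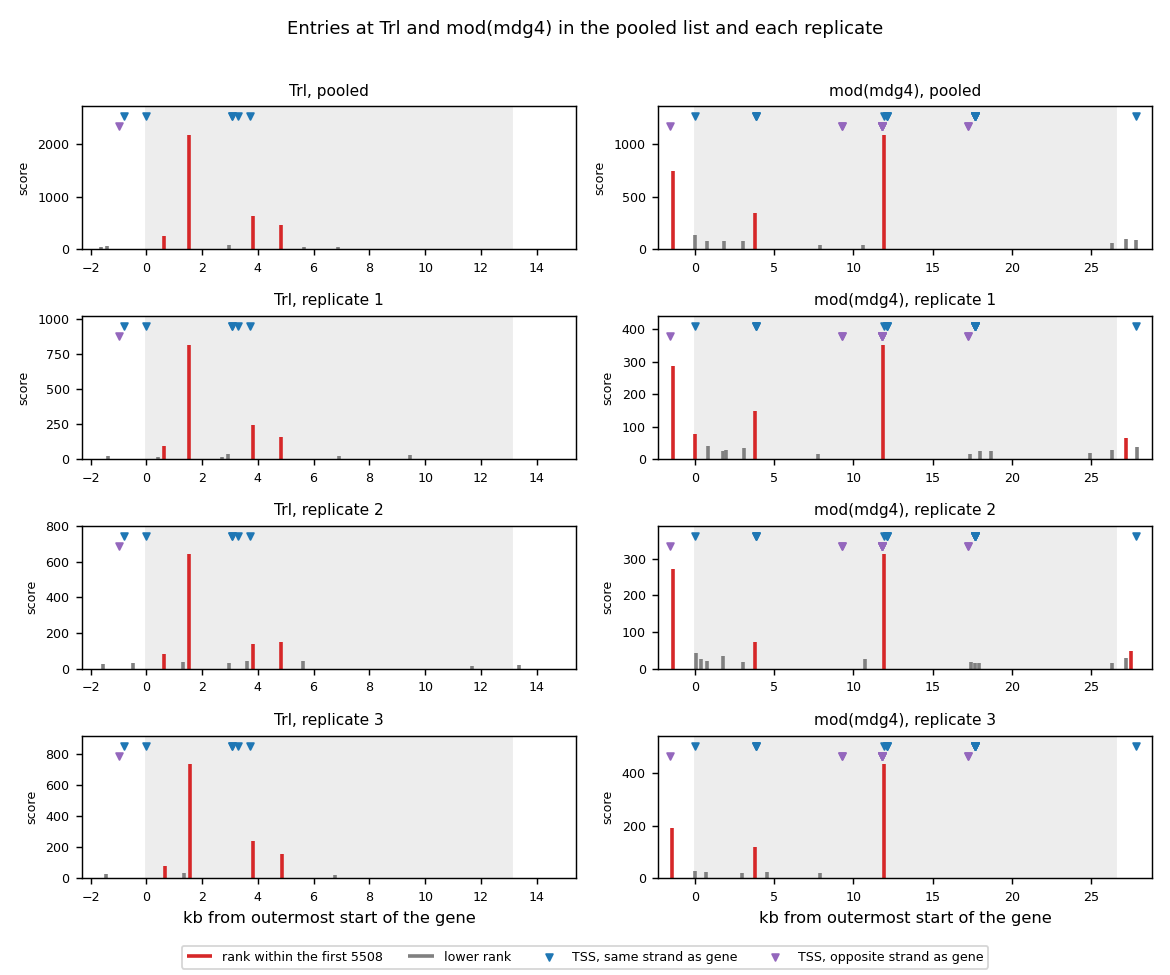
Scores (vertical, linear, each list on its own scale) of entries at Trl (left) and mod(mdg4) (right) against the distance in kb from the outermost start, in the pooled list and in each replicate. Red stems are entries within the first 5508 of their list, grey stems lower ones, grey shading the gene body, and triangles start sites of protein-coding genes on the same (blue) or opposite (purple) strand. The tallest stem stands at 1535 bp for Trl and at 11910 bp for mod(mdg4) in the pooled list, and the tallest stems of the 3 replicates stand at 1528 to 1550 bp and at 11888 to 11941 bp.

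The 5 other genes encode sequence-specific DNA-binding proteins, and their highest peaks ranked between 951 and 4677. pita encodes a zinc finger protein that recruits CP190. Its highest peak spanned 23547919 to 23548148 on 2R, scored 490 and ranked 951. Replicates 1, 2 and 3 ranked it 1134, 1082 and 778, with scores of 166, 144 and 183. It lay 920 bp past the 3′ end of the gene. There it was 59 bp from the TSS of wmd and 192 bp from that of levy, which encodes a cytochrome c oxidase subunit. A second IDR peak overlapped it (rank 3317). Each replicate had an entry of its own near that second summit, with ranks of 3725, 4994 and 2378. The peak at the pita promoter itself, on 2R from 23554465 to 23554894, ranked 3539, with its summit 32 bp from the TSS and replicate ranks of 4168, 5083 and 2485.

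BEAF-32, a BED-finger protein gene, had 2 IDR peaks, both at start sites of its own. The first spanned 14770285 to 14770544 on 2R, scored 419 and ranked 1276. The replicate lists placed it at 1330, 2164 and 915. It had its summit 45 bp upstream of a TSS. The second, from 14771183 to 14771346 (score 262, rank 2603), was 33 bp from an internal start. Replicates 1 and 3 ranked it 2180 and 1640. In replicate 2 the entry at this summit ranked 8146, outside the first 5508, and a higher-scoring entry of rank 2710 overlapped the peak with its summit at 568 bp from the outermost start, against 799 bp in the pooled list. The second held a TCAAGTG Tinman site 32 bp from its summit. It was the only one of the 18 peaks with TCAAGTG or TTAAGTG within 50 bp of the summit, and 1.74% of all IDR peaks had TCAAGTG and 2.49% had TTAAGTG there.

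Dref, which encodes the DRE-binding factor, had its summit in the gap between its TSS, 27 bp away, and that of the ribosomal protein gene RpL13, 57 bp away. This peak, on 2L from 9967201 to 9967404, scored 349 and ranked 1717, with replicate ranks of 892, 1673 and 2204. The CGATA shown in capitals above began 14 bp from the summit, and no full DRE lay in the peak.

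su(Hw), whose zinc finger protein binds the gypsy insulator, and CTCF had the lowest of the highest peaks. The su(Hw) peak, on 3R from 14308720 to 14309149 (score 187, rank 4149), ranked 5938, 5831 and 3136 in replicates 1, 2 and 3, so only replicate 3 held it within its first 5508. Its summit was 154 bp from Polr2I, which encodes an RNA polymerase II subunit, and 346 bp from su(Hw). At 15.8% GC its summit window was among the most AT-rich, with 0.545% of IDR windows at or below it. The CTCF peak, on 3L from 7356333 to 7356762 (score 169, rank 4677), ranked 2754, 6327 and 3768, and its summit lay in an intron 165 bp downstream of the TSS. The entry of replicate 1 had its summit nearer to the TSS, at 37 bp. The neighbouring pooled entry, 36 bp from that TSS, ranked 8606.

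**Figure D3:**
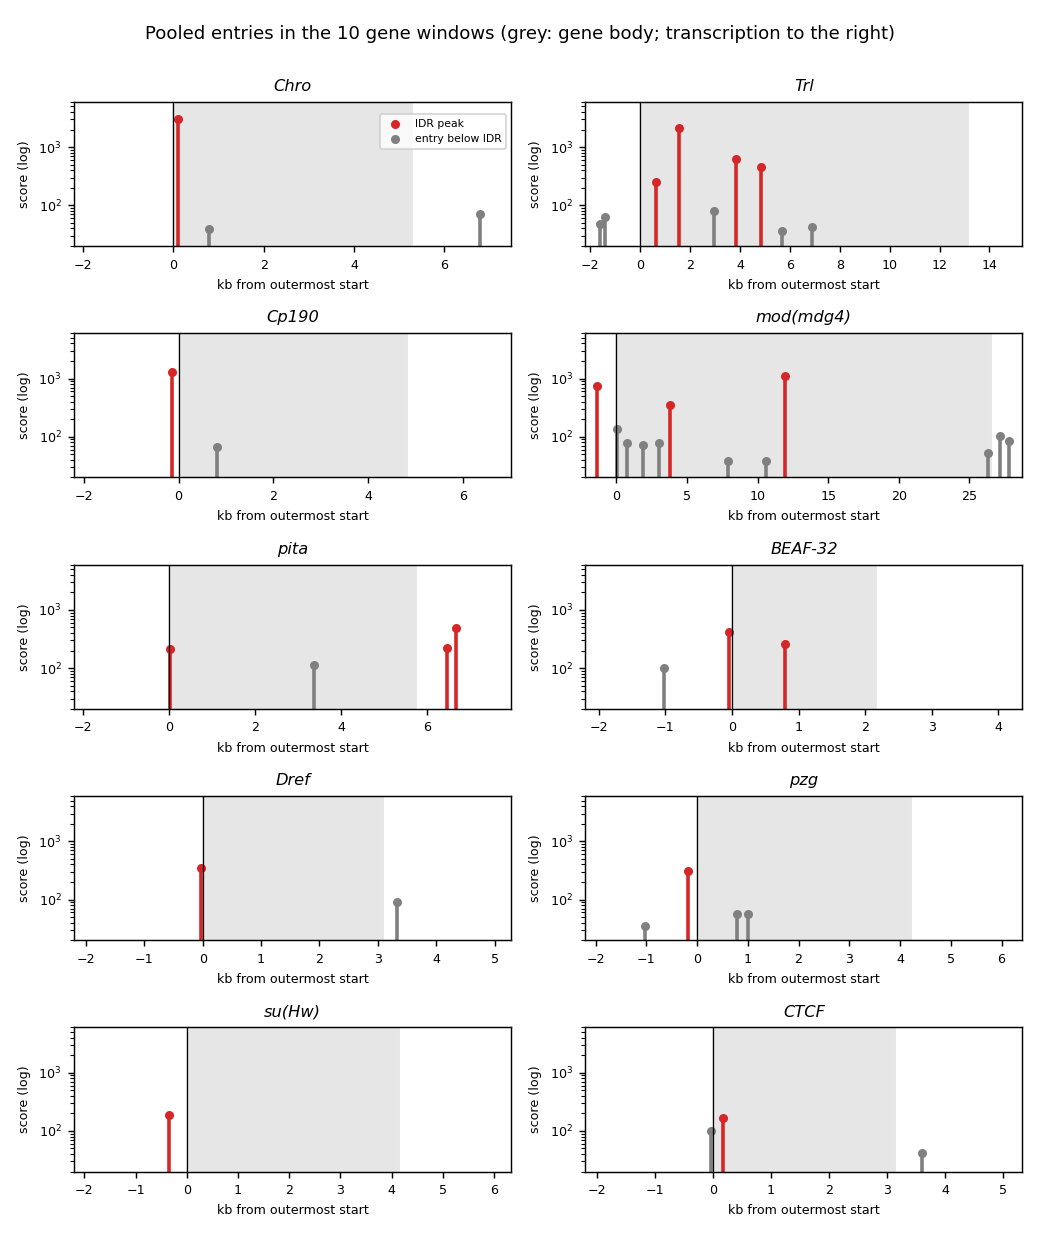
Pooled entries in the windows of the 10 genes, drawn with transcription to the right: score (log axis) against distance in kb from the outermost start, with the gene body in grey, IDR peaks in red and lower entries in grey. In 7 genes the tallest red stem stands at the start of the gene. In Trl (1535 bp) and mod(mdg4) (11910 bp) it stands inside the gene, and in pita past its 3′ end.

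By position, 7 of 10 genes had their highest peak no more than 500 bp from one of their own start sites, the exceptions being Trl, mod(mdg4) and pita. Over all bound genes that share was 48.5% (2745 of 5663). Of the 18 peaks, 15 had a start site of some protein-coding gene within 500 bp (83.3%), and 49.3% of all IDR peaks did. The 18 came only from gene windows and the full list did not, so this share and the next are not like for like. Start sites on both strands lay within 500 bp of 8 of the 18 summits (44.4%), against 19.7% of all IDR peaks. They were the peaks of Chro, Dref, su(Hw), Cp190 and pzg, the strongest peak of mod(mdg4) and both peaks at wmd and levy, which overlap. For Chro, Dref, su(Hw), Cp190 and pzg this means that 1 peak is shared with a head-to-head neighbour, and it cannot be assigned to either gene from the lists.

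**Figure D4:**
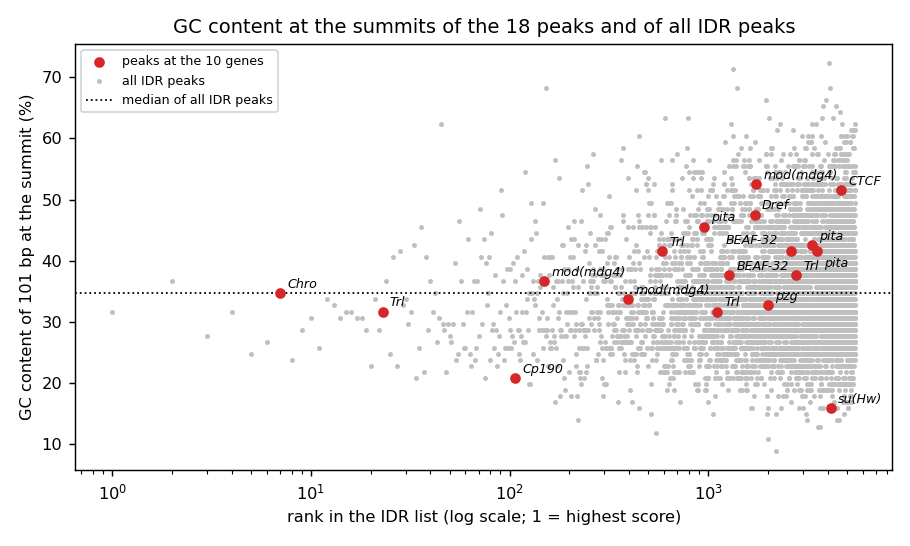
GC content of the 101 bp at each IDR summit (vertical, in percent) against rank in the IDR list (log axis). Red points are the 18 peaks at the 10 genes, small grey points all 5508 IDR peaks and the dotted line their median of 34.7%. The 18 peaks run from 15.8% at su(Hw) to 52.5% at mod(mdg4).

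The median GC content of the 18 summit windows was 37.6%, and that of all IDR windows 34.7%. The 18 windows ran from 15.8% to 52.5%, and the middle 90% of all IDR windows from 22.8% to 52.5%. The 4 genes of highest rank had windows of 34.7% (Chro), 31.7% (Trl), 20.8% (Cp190) and 36.6% (mod(mdg4)).

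Motifs were searched on both strands in the 101 bp at the summit and in the whole peak, and a match describes letters only. Of the 18 peaks, 27.8% had the commonest width of 430 bp, against 55.2% of all IDR peaks. More of them also had a start site within 500 bp (83.3%, against 49.3%). Motif shares of the 18 peaks and of the full list, here and below, are therefore not like for like. The DRE, TATCGATA, was at 0 of the 18 summits and in 4 of the 18 peaks (22.2%). It was at 2.58% of all IDR summits and in 6.74% of all IDR peaks. The 4 peaks were those of Cp190, CTCF, the pita promoter and the levy start. In the 101 bp centred on each protein-coding TSS, 4.48% held it. CGATA, which each DRE contains on both strands, was at 5 summits (Chro, Dref, pzg, CTCF and the wmd start; 27.8%), against 18.7% of all IDR summits and 23.6% of the windows at TSSs. GAGAG was at 0 of 18 summits and in 2 peaks (11.1%), against 9.71% of summits and 36.9% of peaks over the list and 12.7% of the windows at TSSs.

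The CTCF peak held a motif of the protein that CTCF encodes. The CTCF core AGNNGGCGC lay 30 bp from the summit of the CTCF peak, as shown above, and in 3 of the 18 peaks (16.7%, the others at Trl and pzg), against 5.23% of all IDR peaks. A Su(Hw) core, TGCATANTT, lay in 1 peak, the strongest of mod(mdg4), 63 bp from its summit, and in 4.07% of all IDR peaks. The su(Hw) peak held none, and it held the only match to the M1BP core GGTCACACT, 155 bp from its summit (3.38% of all IDR peaks). In the 101 bp at the summit, 2.81% of all IDR peaks held the CTCF core, 1.69% the Su(Hw) core and 1.07% the M1BP core. Of 101-bp windows at TSSs, 0.945% held the CTCF core, 0.353% the Su(Hw) core and 3.64% the M1BP core. Shares in whole peaks are not like for like with shares in 101-bp windows.

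Further listed genes for insulator, promoter, cohesin and condensin proteins, whose roles are not all those of the 10, were bound in part. Of 14 further DNA-binding insulator and promoter factor genes 6 were bound, of 5 insulator and interband partners 4, and of 10 cohesin and condensin genes 6. In sum 16 of 29 were bound (55.2%), beside the 40.6% of all genes, without matching for window length. The highest-scoring of these peaks lay at JIL-1, the histone H3 kinase of interbands, on 3L from 11084574 to 11084964 (score 1048, rank 171, replicate ranks 163, 158 and 226). It was inside the gene, 7069 bp from the nearest start. Next were Cap-H2, a condensin II subunit gene (rank 652, replicate ranks 768, 586 and 622), M1BP, a promoter-binding zinc finger gene (rank 671, replicate ranks 709, 847 and 614), and SMC2, a condensin subunit gene (rank 717, replicate ranks 1021, 708 and 604). The Cap-H2 summit was nearer to MED7, 41 bp away, than to Cap-H2, 237 bp away, and that of M1BP was nearer to CG8202 (59 bp against 334 bp). The highest summits at Ibf1, zld, l(3)mbt, wapl and Cap-D3 were also nearer to the TSS of another gene than to their own. No IDR summit lay within 2 kb of dwg, Ibf2, ZIPIC, Elba1, Elba2, Elba3, insv, Clamp, HIPP1, SMC3, vtd, Nipped-B or glu.

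At the edges of the 2 kb window, the outermost IDR summits counted were those at tin, 1397 bp from mod(mdg4), and past the end of pita, 920 bp from it. The nearest IDR summits left out were 3779 bp from CTCF, at Sec63, and 4855 bp from Cp190, at ATPsynO. At the end of the IDR list, the last of the 18 peaks was that of CTCF at rank 4677, and the first entry of these windows beyond it was that at the mod(mdg4) start at rank 6057.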

How the data were processed

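Per the labels, chromatin sonicated to 200 to 800 bp came from 3 biological replicates, and replicate numbers were taken from the labels. The antibody field names tin and the description anti-GFP. The aligner, the peak caller and the cutoff for IDR were not given in the sources used here. Control libraries are named in the labels and were not analysed here. The score of each entry is the authors' deposited signal value, without a stated normalization, so scores were compared within a list only. The −log10 q values the authors deposited served as an alternative, chosen after seeing the data. Lists on dm3 were not used.

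A summit is column 2 plus column 10 of a list. Genes came from Ensembl release 115 on dm6, bases from RefSeq Release 6. Replicate ranks are those of the highest-scoring entry overlapping the IDR peak by at least 1 bp, which for the second peaks of pita and BEAF-32 can be the entry of a neighbouring summit. Python 3.11.15 with pandas 2.3.3 was used, and the window and motif searches were tested on simulated data. The 10 genes, the further gene lists and the motifs were chosen with earlier results of these data known. Of 30 further listed genes, 1 could not be matched to a single symbol. Named were the 10 genes, genes with a TSS within 500 bp of their highest peaks, the 4 further listed genes of highest score and the genes at the 4 peaks most like that of Chro. Other genes named, at second peaks or outside the windows, were chosen after their values were seen. So were the further listed genes without an IDR summit and the others whose summit lay nearer to another gene. Nothing in the design allows a test of conditions, so there are no p-values.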

Additional observations from a re-analysis of the deposited data

How the results depend on the processing

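All 10 genes stayed bound with windows of 1 kb or 5 kb. Ranking by −log10 q, an alternative chosen after seeing the data, could not change the count, because 5569 pooled entries, more than the IDR list holds, tie at the highest value of 4.05 and were all kept. With the gene body alone 6 genes and 10 summits were left, since the summits of Dref, su(Hw), Cp190 and pzg lie upstream of the gene. Counting only summits whose nearest TSS is the gene's own, an alternative chosen after seeing the data, left 7 genes and 11 summits, without su(Hw), mod(mdg4) and pzg. Requiring an entry among the first 5508 of both other replicates, without each replicate in turn, left 7 to 9 genes and 15 to 17 summits, with the second BEAF-32 peak counted through the neighbouring entry of replicate 2. su(Hw) was lost in all 3 cases, and CTCF and pzg without replicate 1 and without replicate 3. An overlap of 50% with an entry among the first 5508 in all 3 replicates left 7 genes and 13 summits, without CTCF, su(Hw) and pzg. The higher-scoring 2754 IDR peaks left 8 genes, without CTCF and su(Hw). Chro ranked 9 in replicate 2. The DRE was in 2 peaks within 100 bp of the summit (4.81% of all IDR peaks) and in 4 anywhere in the peak, and CGATA in 5 within 50 bp. Among the mean replicate ranks of the highest peaks, that of pzg moved most when a replicate was left out, to 1548 without replicate 2, against 3339 with all 3. Ranked by −log10 q, Chro, BEAF-32, Dref, Cp190, mod(mdg4), Trl and pita all tied at a mean rank of 1.00. That ranking therefore gives no order among them. It placed su(Hw) at 1968, CTCF at 2148 and pzg at 2310. Rankings by −log10 p were not run, because that column holds one constant value. No paired analysis was possible because there is only 1 group. Without read counts, no counting error or depth limit can be given for any rank.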
